A study of Arabidopsis thaliana with 12 samples.

Results

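The comparison set 4 libraries of the line rAP2-VENUS #A6, here called rAP2-VENUS, against 4 libraries of the mutant ap2-12, 8 of the 12 libraries of the series, chosen by genotype label alone. All are poly(A) RNA sequencing libraries of Arabidopsis thaliana shoot apices, here taken as the growing tip of the main inflorescence with flower buds. Plants grew in long days (16 h light, 8 h dark) and were sampled with a main stem of 1 cm. The extraction protocol of the labels names 15 apices, which reads as the number per replicate, so each library would be a pool of plants.

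The line rAP2-VENUS is named for a construct of the gene APETALA2 (AP2) joined to VENUS, a yellow fluorescent protein. The labels neither explain the r of its name nor state which promoter drives the construct, or whether the line keeps its normal AP2 copy, and a single line (#A6) was profiled. The mutant ap2-12 carries an altered AP2 gene. No treatment or further allele is given for either genotype. The remaining 4 libraries are wild type Col-0 (WT). They entered the estimate of the spread and are quoted where they help to place a value.

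AP2 encodes a transcription factor with AP2 DNA-binding domains. In the flower it is known for specifying sepals and petals and for holding the carpel and stamen gene AGAMOUS (AG) out of the outer whorls, and at the shoot apex for delaying flowering and for sustaining the stem cell pool. The microRNA miR172 pairs with a site in the transcripts of AP2 and of its relatives TOE1, TOE2, TOE3, SMZ and SNZ, and lowers their output by cleavage and by blocking translation.

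Levels are given in CPM, counts brought to a common library total and scaled by TMM, a method that corrects for differences in composition. The test was edgeR's quasi-likelihood test with Benjamini-Hochberg adjustment over 18807 genes, and a gene was called at an adjusted p under 0.05. A log2 fold change is rAP2-VENUS over ap2-12, so a positive value means a higher level in rAP2-VENUS, and SE is its standard error. The totals were 10579822 to 14404491 counts in rAP2-VENUS and 12553210 to 14443143 in ap2-12.

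Of the 18807 genes, 3686 were called, which is 19.6%. In rAP2-VENUS 2207 of them were higher (11.7% of the genes tested) and 1479 were lower (7.86%). These shares are given as the background for every list count below. The lists were chosen with earlier results of these data known. A list count above these shares is therefore a description and not independent evidence. At least 2-fold changes made up 713 of the higher calls and 462 of the lower calls, or 3.79% and 2.46% of the genes tested and 6.25% together, and at least 4-fold changes made up 223 and 118. The lowest of the 4 libraries of a genotype lay above the highest of the other genotype in 4614 genes (24.5%), and 3391 of the called genes were among these. The median log2 fold change of all genes tested was -0.01. In a bulk sample of an apex, fewer cells of a type and less RNA per cell cannot be told apart, and this holds for every gene group below.

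**Figure D1:**
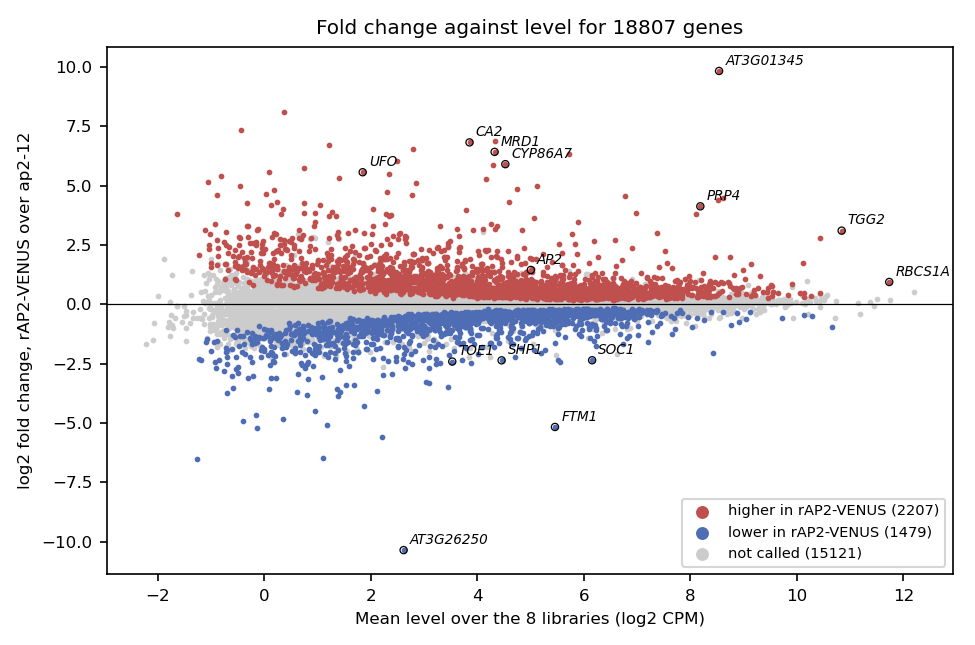
Log2 fold change of rAP2-VENUS over ap2-12 (vertical axis) against the mean level over the 8 libraries in log2 CPM (horizontal axis), 1 point per gene tested. The 2207 genes called higher in rAP2-VENUS are red, the 1479 called lower are blue and the rest are grey. Named points are circled. AT3G26250 at the bottom had 0 counts in rAP2-VENUS, so its plotted position depends on the prior count of the fit.

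The first principal component of the 8 libraries held 54.1% of the variance and parted the genotypes, with rAP2-VENUS at -40.9 to -28.5 and ap2-12 at 27.9 to 40.9. The second held 25.8% and ran with the replicate number in both genotypes, with rAP2-VENUS replicates 1 to 4 at 23.6, 7.46, -9.71 and -33.9 and ap2-12 replicates 1 to 4 at 47.5, 1.13, -7.68 and -28.3. Clock genes followed the replicate number too. LHY, a morning gene, was at 94.3, 42.5, 34.4 and 12.7 CPM in rAP2-VENUS replicates 1 to 4 and at 135.7, 53.0, 35.7 and 20.8 CPM in ap2-12 replicates 1 to 4. FKF1, an evening light sensor, was at 4.00, 16.2, 20.6 and 68.5 CPM in rAP2-VENUS and at 1.45, 5.83, 10.4 and 25.1 CPM in ap2-12. The spread among libraries of a genotype was therefore several-fold for such genes, and the groups overlapped. The labels give no hour of harvest, and the part of this pattern in other results was not tested.

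**Figure D2:**
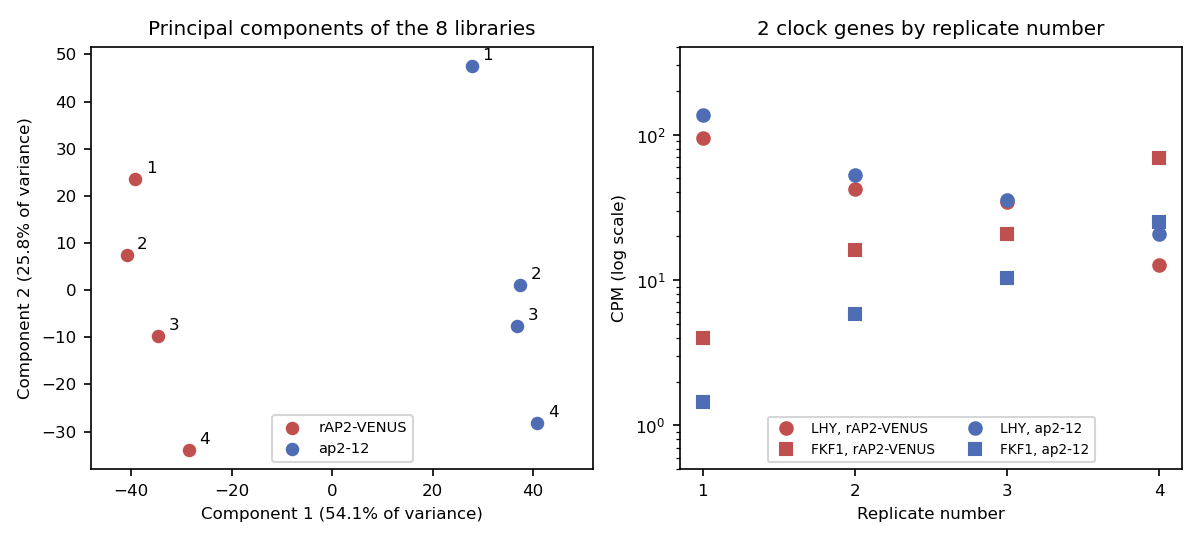
Left, the 8 libraries on the first and second principal components of log2(CPM + 0.5), with the share of variance on each axis and the replicate number beside each point. Right, the levels of LHY (circles) and FKF1 (squares) in CPM on a log scale by replicate number, rAP2-VENUS in red and ap2-12 in blue. The genotypes part on the horizontal component and the replicate numbers on the vertical one.

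In the fits without the replicate number, none of the 13 clock genes tested was called by edgeR, DESeq2 or limma-voom, and in the edgeR fit 0 had an unadjusted p under 0.05. The log2 fold changes were 1.68 (SE 0.962, adjusted p = 0.259) for ELF4, 1.35 (SE 0.972, adjusted p = 0.376) for FKF1, 0.57 (SE 0.547, adjusted p = 0.52) for PRR3 and 0.14 (SE 0.176, adjusted p = 0.642) for ELF3. A p that misses the threshold beside such SEs does not show that the levels were alike. With the replicate number as a block, ELF4, FKF1 and PRR3 passed, as given further on.

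The gene altered in the mutant and carried by the construct was examined first. AP2 (AT4G36920) was at 58.1, 46.6, 41.3 and 42.1 CPM in rAP2-VENUS, against 20.6, 15.6, 17.3 and 15.5 CPM in ap2-12. Every rAP2-VENUS library lay above every ap2-12 library. The level was 2.73-fold higher in rAP2-VENUS (log2 fold change 1.45, SE 0.232, adjusted p = 0.000749), and WT stood at 57.5 ± 23.8 CPM (SD, n = 4). Counts per gene do not separate transcripts of the construct from those of the normal gene, nor intact from altered transcripts, so the value bears on the labels only as a level.

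The sequences that set the AP2-like genes apart are the miR172 site and its partner. Mature miR172a, as RefSeq annotates it on TAIR10.1 (chr2:11942918-11942938, minus strand), is shown 5′ to 3′ with its seed (bases 2 to 8) in capitals, and under it the matching stretch of the coding sequence of each gene measured, 5′ to 3′ on the gene's own strand. Capitals in a site mark bases that differ from the exact complement of miR172a.
miR172a: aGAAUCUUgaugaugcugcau
AP2 (chr4:17403019-17403039, plus strand): CtgcagcatcatcaGgattct
TOE1 (chr2:12226233-12226253, minus strand): CAgcagcatcatcaGgattct
TOE2 (chr5:24210889-24210909, plus strand): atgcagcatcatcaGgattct
TOE3 (chr5:26802175-26802195, minus strand): TGgcagcatcatcaGgattct
SMZ (chr3:20373774-20373794, minus strand): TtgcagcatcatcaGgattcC
All 5 sites carry the change A15G relative to the exact complement, counted from the 5′ end of the site. Further differences sit at the ends, A1C in AP2, A1C and T2A in TOE1, A1T and T2G in TOE3, and A1T and T21C in SMZ. TOE2 has none beyond A15G.

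Of the 4 AP2-like relatives kept by the low-count filter, 3 were lower in rAP2-VENUS and 0 were higher. The list median was -2.37, beside -0.01 for all genes tested. TOE1 (AT2G28550) was at 4.15, 4.23, 3.99 and 2.27 CPM in rAP2-VENUS, against 23.8, 21.2, 16.9 and 16.0 CPM in ap2-12. TOE3 (AT5G67180) was at 7.24, 3.93, 4.09 and 2.27 CPM in rAP2-VENUS, against 28.3, 20.2, 22.1 and 17.5 CPM in ap2-12. Neither gene overlapped between the genotypes. The log2 fold change was -2.41 for TOE1 (SE 0.243, adjusted p = 2.08e-05) and -2.33 for TOE3 (SE 0.351, adjusted p = 0.000483). SMZ (AT3G54990), a repressor of flowering, was at 0.151 to 0.496 CPM in rAP2-VENUS and 1.3 to 2.7 CPM in ap2-12 (log2 fold change -2.43, SE 0.402, adjusted p = 0.000971). TOE2 (AT5G60120) was at 37.3, 34.0, 31.0 and 35.1 CPM in rAP2-VENUS, against 35.1, 35.5, 33.8 and 33.1 CPM in ap2-12, with overlapping libraries. Its log2 fold change was 0.00 (SE 0.0806, adjusted p = 0.995), and its sign turned under several settings. SNZ was not kept by the filter.

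**Figure D3:**
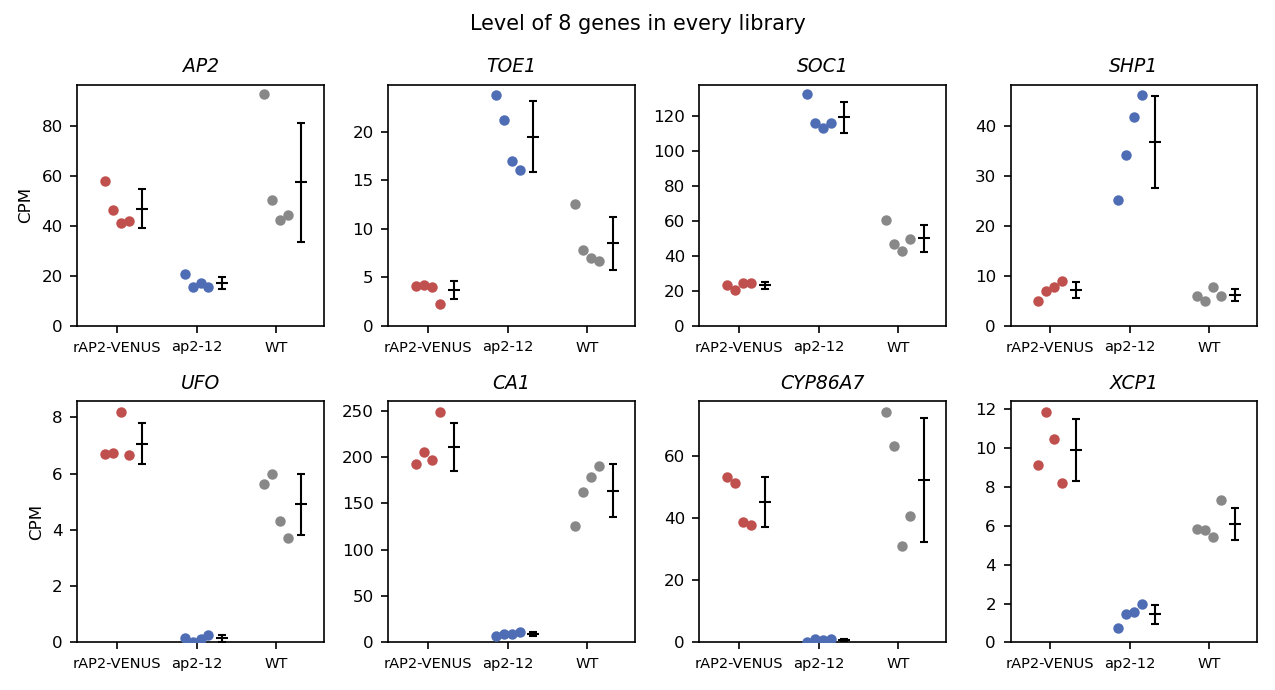
CPM of 8 genes in every library, with rAP2-VENUS (red) left of ap2-12 (blue) and WT (grey) last. Points are libraries in the order of their replicate numbers, and the bar beside them is the mean with the SD (n = 4). In each panel the rAP2-VENUS and ap2-12 libraries do not overlap, with AP2, UFO, CA1, CYP86A7 and XCP1 higher in rAP2-VENUS and TOE1, SOC1 and SHP1 lower.

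MADS box genes that promote or time flowering were lower in rAP2-VENUS in 5 of 8 kept members, 0 were higher, and the median was -1.41. SOC1 (AT2G45660), which integrates flowering signals at the apex, was at 23.4, 20.6, 24.6 and 24.6 CPM in rAP2-VENUS, against 132, 116, 113 and 116 CPM in ap2-12. That is 5.13-fold lower in rAP2-VENUS (log2 fold change -2.36, SE 0.110, adjusted p = 4.12e-08), with WT between them at 50.02 ± 7.59 CPM (SD, n = 4). FUL (AT5G60910), which acts in the inflorescence meristem and later in the fruit, was at 33.0, 30.6, 41.8 and 35.5 CPM in rAP2-VENUS, against 86.5, 88.6, 88.0 and 93.0 CPM in ap2-12 (log2 fold change -1.34, SE 0.0989, adjusted p = 1.82e-06). SVP (AT2G22540), known as a repressor of flowering, moved with the promoters of flowering. It was at 7.01, 7.11, 6.08 and 4.67 CPM in rAP2-VENUS, against 17.0, 18.7, 21.2 and 18.1 CPM in ap2-12 (log2 fold change -1.59, SE 0.134, adjusted p = 5.12e-06). AGL42 (AT5G62165), a close relative of SOC1, was at 9.15 to 15.0 CPM in rAP2-VENUS and 36.3 to 40.2 CPM in ap2-12 (log2 fold change -1.62, SE 0.143, adjusted p = 7.44e-06). AGL71 of the same clade, chosen after its values were seen, had a log2 change of -1.48 (SE 0.295, adjusted p = 0.00343). AGL24, FLC and FLM were not called, with log2 fold changes of 0.31, -0.60 and 0.05.

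An AT-rich element of the form AACAAA, which reads TTTGTT on the other strand, named here because AP2 is known to bind an element of this kind in AG, was searched on both strands in the 250 bases before each gene start of the RefSeq annotation. It was present in 55.1% of 2202 promoters of genes higher in rAP2-VENUS, 54.7% of 1478 promoters of genes lower in rAP2-VENUS and 55.0% of 18733 promoters of all genes tested. The shares lay within 1 percentage point of each other, and a match to so short a motif is a description of the letters and not of binding. SOC1 and FUL are shown as a pair that fell together, 5′ to 3′ on the gene's strand on TAIR10.1, with matches in capitals. SOC1 (chr2:18811126-18811375, minus strand) has 2 matches and FUL (chr5:24506270-24506519, minus strand) has 1. Among other genes lower in rAP2-VENUS, AGL42, SVP and TOE3 have matches, while AGL71, TOE1, SMZ, SHP1, SHP2, STK and AG itself have 0 in these 250 bases.
SOC1: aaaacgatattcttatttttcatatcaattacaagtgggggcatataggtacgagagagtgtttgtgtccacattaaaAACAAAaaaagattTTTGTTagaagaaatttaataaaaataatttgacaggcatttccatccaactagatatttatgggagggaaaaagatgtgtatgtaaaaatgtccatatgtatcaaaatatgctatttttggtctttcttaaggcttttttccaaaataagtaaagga
FUL: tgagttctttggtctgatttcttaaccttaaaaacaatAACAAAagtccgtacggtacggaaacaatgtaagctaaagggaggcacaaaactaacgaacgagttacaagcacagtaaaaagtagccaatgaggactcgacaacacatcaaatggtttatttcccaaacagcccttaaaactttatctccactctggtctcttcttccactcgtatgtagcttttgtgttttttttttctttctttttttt

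Genes that give a young primordium its identity as a flower went the other way. Of 7 kept members of the inflorescence and floral meristem identity list, 5 were higher in rAP2-VENUS, 0 were lower, and the median was 0.85. UFO (AT1G30950), an F-box protein that acts with LEAFY to switch on petal and stamen genes, was at 6.71, 6.73, 8.17 and 6.65 CPM in rAP2-VENUS, against 0.153, 0, 0.138 and 0.270 CPM in ap2-12. It was thus near the detection limit in ap2-12 and measured in every rAP2-VENUS library (log2 fold change 5.57, SE 0.381, adjusted p = 9.58e-07). AP1 (AT1G69120), a MADS factor of the floral meristem, sepals and petals, was at 140, 144, 147 and 140 CPM in rAP2-VENUS, against 84.1, 81.2, 76.1 and 75.8 CPM in ap2-12 (log2 fold change 0.85, SE 0.0694, adjusted p = 4.17e-06). Its close relative CAL (AT1G26310) averaged 15.8 ± 2.81 CPM in rAP2-VENUS and 5.77 ± 0.794 CPM in ap2-12 (SD, n = 4 each, log2 fold change 1.46, SE 0.181, adjusted p = 0.00011). LFY (AT5G61850), the central floral identity factor, averaged 30.6 ± 3.68 CPM in rAP2-VENUS and 19.3 ± 2.29 CPM in ap2-12 (SD, n = 4 each, log2 fold change 0.67, SE 0.117, adjusted p = 0.00143). LMI1, a homeobox gene that acts downstream of LFY and was chosen after its values were seen, had a log2 fold change of 1.39 (adjusted p = 0.00172). TFL1, which keeps the inflorescence tip indeterminate, did not pass (log2 fold change 0.57, adjusted p = 0.109).

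Among 9 kept SPL genes, targets of miR156 that promote the adult and flowering phase, 3 were higher and 2 were lower in rAP2-VENUS, with a median of -0.06. SPL4, SPL5 and SPL9 were the higher ones, with log2 fold changes of 0.68 (SE 0.0731, adjusted p = 3.49e-05), 1.06 (SE 0.202, adjusted p = 0.00249) and 0.68 (SE 0.173, adjusted p = 0.0152). SPL10 was lower, at 57.7 to 74.0 CPM in rAP2-VENUS and 95.8 to 119 CPM in ap2-12 (log2 fold change -0.67, SE 0.115, adjusted p = 0.00121). The family therefore split by member. The call of SPL9 ended without rAP2-VENUS replicate 1 (adjusted p = 0.0524) and without ap2-12 replicate 4 (adjusted p = 0.052). SPL11, the other lower member, was named after its values were seen (log2 fold change -0.33, adjusted p = 0.0384). The lower members numbered 1 without any 1 of rAP2-VENUS replicates 2, 3 and 4 and ap2-12 replicates 2, 3 and 4.

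**Figure D4:**
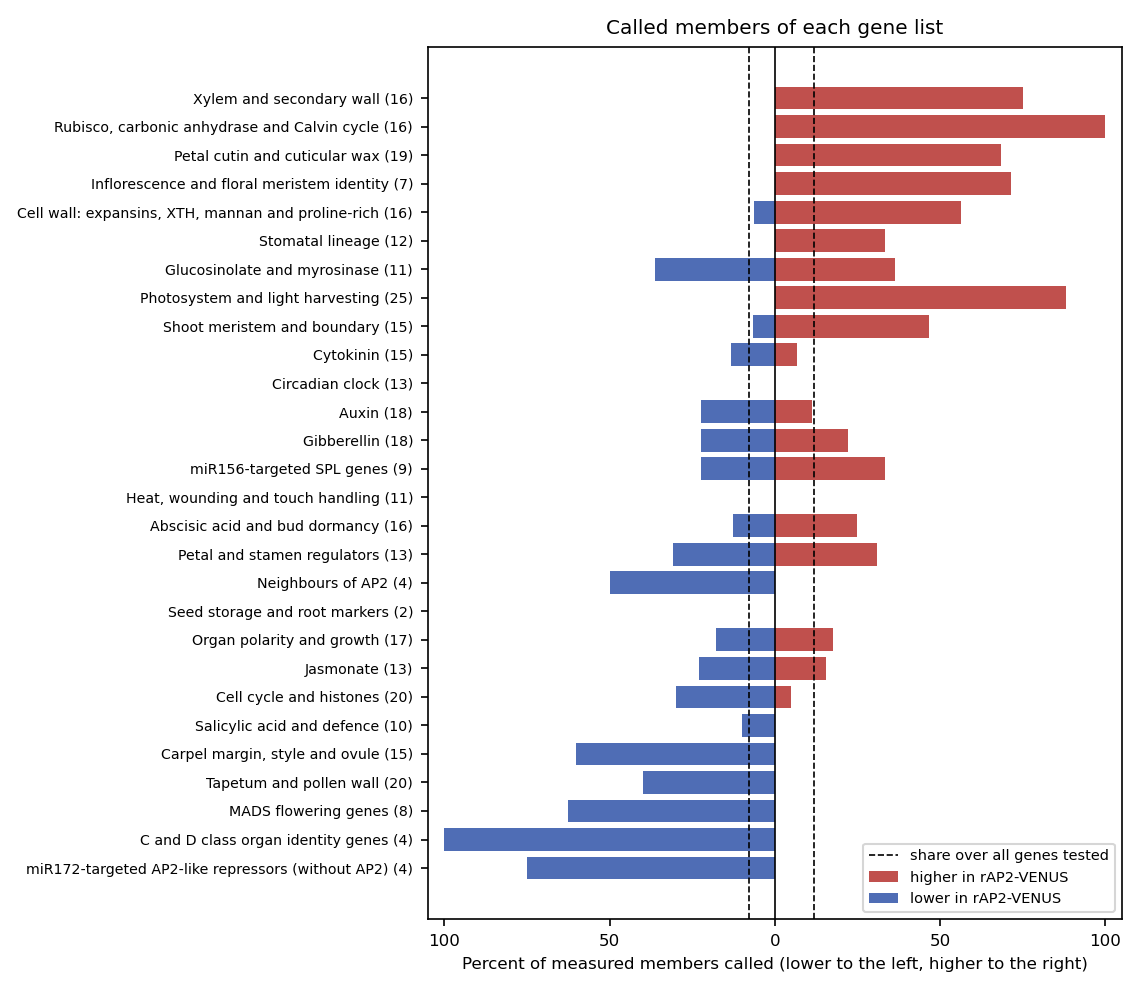
Percent of the kept members of each gene list, except the list picked on the line against WT, called higher (red, to the right) and lower (blue, to the left) in rAP2-VENUS against ap2-12, with the number of kept members in parentheses and lists ordered by their median log2 fold change. Dashed lines mark the shares over all genes tested, 11.7% higher and 7.86% lower. The lists were chosen with earlier results of these data known, so the distance from these lines is a description. The C and D class genes lie wholly on the lower side, and the Rubisco, carbonic anhydrase and Calvin cycle genes wholly on the higher side.

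All 4 genes of the C and D classes, MADS factors that give stamens, carpels and ovules their identity, were lower in rAP2-VENUS, with a median of -1.92. AG (AT4G18960), the C class gene of the inner whorls, was at 64.5, 56.2, 56.0 and 54.5 CPM in rAP2-VENUS, against 128, 108, 100.3 and 96.3 CPM in ap2-12 (log2 fold change -0.90, SE 0.117, adjusted p = 0.000158). SHP1 (AT3G58780), a carpel and fruit factor, was at 5.05, 6.88, 7.70 and 8.99 CPM in rAP2-VENUS, against 25.1, 34.2, 41.7 and 46.2 CPM in ap2-12 (log2 fold change -2.36, SE 0.214, adjusted p = 9.38e-06). AG thus changed by less than SHP1, and in both genes the genotypes did not overlap. SHP2 averaged 10.4 ± 0.867 CPM in rAP2-VENUS and 32.2 ± 2.87 CPM in ap2-12 (SD, n = 4 each, log2 fold change -1.63, SE 0.105, adjusted p = 6.66e-07). STK (AT4G09960), needed for ovule identity, was at 1.4 to 4.6 CPM in rAP2-VENUS and 9.86 to 17.1 CPM in ap2-12 (log2 fold change -2.22, SE 0.330, adjusted p = 0.000436).

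Regulators of the carpel margin, style and ovule were lower in rAP2-VENUS in 9 of 15 kept members by edgeR, 0 were higher, and the median was -0.76. DESeq2 and limma-voom each called 9 lower and 1 higher. CRC (AT1G69180), a YABBY factor of the carpel and nectary, was at 49.2, 64.3, 48.6 and 43.7 CPM in rAP2-VENUS, against 216, 154, 152 and 127 CPM in ap2-12 (log2 fold change -1.66, SE 0.210, adjusted p = 0.000129). The basic helix-loop-helix genes HEC1, HEC2 and HEC3, which act in the carpel margin, were all lower, HEC2 having been chosen after its values were seen. HEC3 was at 1.62 to 2.34 CPM in rAP2-VENUS and 7.11 to 14.0 CPM in ap2-12 (log2 fold change -2.29, SE 0.219, adjusted p = 1.47e-05). HEC1 had a log2 change of -2.01 (SE 0.225, adjusted p = 5.16e-05) and HEC2 of -1.80 (SE 0.258, adjusted p = 0.000335). Their partner SPT (AT4G36930) was at 30.3, 34.0, 37.2 and 41.8 CPM in rAP2-VENUS, against 48.8, 53.7, 66.1 and 74.1 CPM in ap2-12 (log2 fold change -0.76, SE 0.134, adjusted p = 0.00152). STY1, a style factor, averaged 3.93 ± 0.462 CPM in rAP2-VENUS and 13.5 ± 1.53 CPM in ap2-12 (SD, n = 4 each, log2 fold change -1.77, SE 0.186, adjusted p = 2.85e-05). NGA1, NGA4, STY2, INO, BEL1 and ETT were not called, and 1 member was higher without ap2-12 replicate 1. The summed level of the carpel markers CRC and SPT, both members of this list, was 79.5 to 98.3 CPM in rAP2-VENUS and 201 to 264 CPM in ap2-12. That of the ovule markers INO, BEL1 and STK was 9.90 to 13.8 CPM in rAP2-VENUS and 19.5 to 29.4 CPM in ap2-12. Most of the ovule difference came from STK, described above, which averaged 3.01 CPM in rAP2-VENUS and 14.0 CPM in ap2-12. The part of these markers in the result was not tested.

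Petal and stamen regulators split, with 4 of 13 kept members higher and 4 lower in rAP2-VENUS and a median of -0.16. AP3 (AT3G54340), the B class gene of petals and stamens, was at 143, 137, 123 and 110.0 CPM in rAP2-VENUS, against 76.0, 63.7, 53.3 and 47.3 CPM in ap2-12 (log2 fold change 1.0952, SE 0.161, adjusted p = 0.000412). Its partner PI, chosen after its values were seen, had a log2 fold change of 0.37 (adjusted p = 0.000564). AGL6 (AT2G45650), a relative of the SEPALLATA genes, was at 15.4, 11.8, 12.2 and 12.9 CPM in rAP2-VENUS, against 3.67, 4.02, 4.08 and 3.71 CPM in ap2-12 (log2 fold change 1.75, SE 0.164, adjusted p = 1.2e-05). SUP (AT3G23130), a zinc finger repressor at the border of stamens and carpels, was lower, at 1.36 to 1.77 CPM in rAP2-VENUS and 5.04 to 6.56 CPM in ap2-12 (log2 fold change -1.87, SE 0.185, adjusted p = 1.85e-05). NUB, which supports stamen and carpel growth, was also lower (log2 fold change -1.33, SE 0.189, adjusted p = 0.000299). The SEPALLATA genes themselves, cofactors of every organ class, moved by little. SEP2 was higher by 0.24 on the log2 scale (adjusted p = 0.0116), SEP1 and SEP3 had log2 fold changes of -0.26 (adjusted p = 0.00701) and -0.27 (adjusted p = 0.0349), and SEP4 was not called. These 4 were chosen after their values were seen.

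Among genes of the shoot meristem and organ boundaries, 7 of 15 kept members were higher and 1 was lower in rAP2-VENUS, with a median of 0.36. STM (AT1G62360), the KNOX homeobox gene that keeps meristem cells undifferentiated, was at 68.3, 81.2, 55.5 and 58.8 CPM in rAP2-VENUS, against 33.5, 27.5, 30.1 and 25.7 CPM in ap2-12 (log2 fold change 1.18, SE 0.150, adjusted p = 0.000137). Its BELL-type partner ATH1 (AT4G32980) was at 47.9, 40.9, 44.8 and 47.0 CPM in rAP2-VENUS, against 25.2, 22.4, 25.8 and 20.2 CPM in ap2-12 (log2 fold change 0.95, SE 0.122, adjusted p = 0.000149). Both lay without overlap at about 2-fold. BLH8, another BELL gene, had a log2 change of 0.68 (SE 0.154, adjusted p = 0.00762), and LAS, a boundary gene needed for side shoots, of 0.65 (SE 0.168, adjusted p = 0.0158). LAS lost its call without rAP2-VENUS replicate 2 (adjusted p = 0.0537) and without ap2-12 replicate 4 (adjusted p = 0.0521). WUS, the stem cell organiser gene, was chosen after its values were seen, at 7.57 to 10.3 CPM in rAP2-VENUS and 4.97 to 6.77 CPM in ap2-12 (log2 fold change 0.56, SE 0.168, adjusted p = 0.0347). Of the boundary genes CUC1 and CUC2, also chosen after their values were seen, CUC1 was higher (0.62, adjusted p = 0.0454) and CUC2 lower (-0.44, adjusted p = 0.0322), each with overlapping libraries. The count of higher members fell to 4 without rAP2-VENUS replicate 1, 3 without rAP2-VENUS replicate 2 and 4 without ap2-12 replicate 2, and the single lower member was lost in 5 of the 8 such fits.

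Organ polarity and growth genes were called in 6 of 17 kept members, beside 19.6% of all genes. There were 3 calls in each direction, and the list median was -0.20. Of the YABBY genes of the outer face of organs, YAB3 was higher (log2 fold change 0.53, SE 0.0877, adjusted p = 0.000959) and YAB2 lower (-0.47, SE 0.0707, adjusted p = 0.000506). Among the AINTEGUMENTA-like growth genes AIL6 was higher (0.56, SE 0.123, adjusted p = 0.00633) and AIL5 lower (-0.67, SE 0.102, adjusted p = 0.000541). Relatives of each family thus moved in opposite directions. Without ap2-12 replicate 1 the count of lower members was 5.

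**Figure D5:**
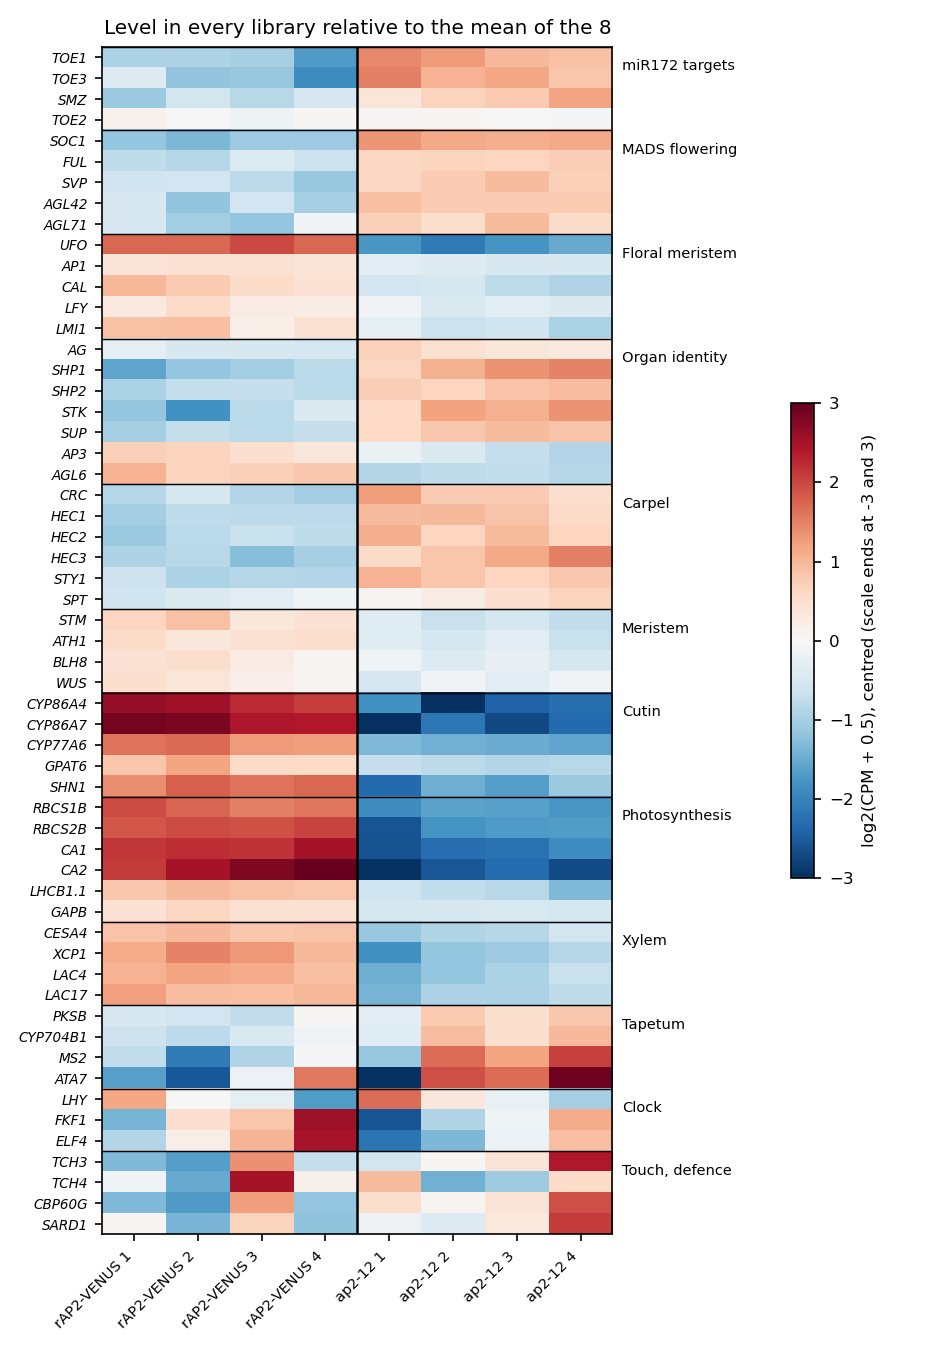
Level of named genes in every library, as log2(CPM + 0.5) minus the mean over the 8 libraries, with rAP2-VENUS replicates 1 to 4 left of ap2-12 replicates 1 to 4 and genes grouped by role. Red is above the mean and blue below it, and the colour scale ends at -3 and 3. Most rows change at the line between the genotypes, while the clock rows change with the replicate number and the touch and defence rows differ among libraries of a genotype, with rAP2-VENUS replicate 3 above the other rAP2-VENUS libraries.

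Carbon fixation genes were higher in rAP2-VENUS throughout the list, 16 of 16 kept members with a median of 1.11. CA1 (AT3G01500), the main chloroplast carbonic anhydrase, was at 192, 206, 197 and 248 CPM in rAP2-VENUS, against 6.72, 8.58, 8.91 and 11.6 CPM in ap2-12. Another carbonic anhydrase, CA2 (AT5G14740), was at 18.9, 24.9, 30.9 and 40.1 CPM in rAP2-VENUS, against 0.0764, 0.268, 0.415 and 0.203 CPM in ap2-12. Both were low in every ap2-12 library, 23.5-fold apart for CA1 (log2 fold change 4.55, SE 0.183, adjusted p = 9.91e-09) and 113-fold apart for CA2 (log2 fold change 6.83, SE 0.436, adjusted p = 6.29e-07). The fold of CA2 rests on few ap2-12 counts. The small subunits of Rubisco, the enzyme that fixes CO2, differed in size of change. RBCS2B was at 224 to 254 CPM in rAP2-VENUS and 9.86 to 18.8 CPM in ap2-12 (log2 fold change 3.87, SE 0.179, adjusted p = 4.12e-08), and RBCS1B had a log2 change of 3.49 (SE 0.138, adjusted p = 9.12e-09). RBCS3B had a smaller one, 1.69 (SE 0.0944, adjusted p = 2.06e-07), and RBCS1A, chosen after its values were seen, 0.94 (SE 0.111, adjusted p = 7.62e-05). The copies are near-identical in sequence, so how reads were divided among them is uncertain. FBA5, an aldolase outside the list, was at 30.6, 42.0, 47.8 and 63.3 CPM in rAP2-VENUS, against 1.68, 1.68, 2.76 and 2.97 CPM in ap2-12 (log2 fold change 4.33, SE 0.417, adjusted p = 1.47e-05).

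Photosystem and light harvesting genes were higher in 22 of 25 kept members, 0 were lower, and the median of 0.53 was smaller than that of carbon fixation. LHCB1.1 (AT1G29920), a chlorophyll-binding antenna protein, was at 1627, 1829, 1721 and 1669 CPM in rAP2-VENUS, against 612, 562, 524 and 375 CPM in ap2-12 (log2 fold change 1.72, SE 0.154, adjusted p = 8.34e-06). The photosystem subunits PSBX, PSAH2 and PSAE-1 had log2 fold changes of 0.64 (SE 0.0775, adjusted p = 9.44e-05), 0.69 (SE 0.0844, adjusted p = 9.99e-05) and 0.84 (SE 0.105, adjusted p = 0.00012). Without rAP2-VENUS replicate 4 the count of higher members was 14. The summed level of the green tissue markers LHCB1.1, LHCB2.1 and RBCS1A, members of these lists, was 6440 to 7160 CPM in rAP2-VENUS and 2890 to 3330 CPM in ap2-12, and its part in the result was not tested.

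Genes of petal cutin and cuticular wax, the lipid coat of the epidermis, were higher in 13 of 19 kept members, with 0 lower and a median of 0.86. CYP86A7 (AT1G63710), a fatty acid hydroxylase, was at 53.4, 51.3, 39.0 and 37.9 CPM in rAP2-VENUS, against 0.229, 1.14, 0.622 and 0.945 CPM in ap2-12. CYP86A4 (AT1G01600), of the same family, was at 80.6, 75.1, 60.6 and 53.9 CPM in rAP2-VENUS, against 3.21, 1.14, 1.93 and 2.23 CPM in ap2-12. The log2 fold changes were 5.91 (SE 0.380, adjusted p = 6.64e-07) for CYP86A7 and 5.0 (SE 0.329, adjusted p = 7.79e-07) for CYP86A4. CYP77A6, which adds the in-chain hydroxyl group of flower cutin, averaged 97.8 ± 15.5 CPM in rAP2-VENUS and 12.4 ± 0.956 CPM in ap2-12 (SD, n = 4 each, log2 fold change 2.98, SE 0.186, adjusted p = 5.31e-07). The regulator SHN1 (AT1G15360) was at 29.2, 38.8, 34.8 and 37.0 CPM in rAP2-VENUS, against 1.76, 3.62, 3.11 and 4.73 CPM in ap2-12 (log2 fold change 3.39, SE 0.226, adjusted p = 8.43e-07). The wax genes CER3, CER4, KCS1 and CYP96A15 were not called. Outside the list, other genes of lipid or acyl annotation among the largest changes moved in both directions, with FTM1 and LTP2, described further on, lower in rAP2-VENUS. RXF26, a GDSL lipase, was at 85.1 to 119.96 CPM in rAP2-VENUS and 0.810 to 2.06 CPM in ap2-12 (log2 fold change 6.35, SE 0.296, adjusted p = 4.12e-08), and GLC, an HXXXD-type acyltransferase, at 13.3 to 15.0 CPM in rAP2-VENUS and 0 to 0.878 CPM in ap2-12 (log2 fold change 5.10, SE 0.449, adjusted p = 7.44e-06). The fold of GLC rests on few ap2-12 counts. Its log2 fold change was 4.72 without ap2-12 replicate 1 and 5.83 without ap2-12 replicate 4.

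Cell wall genes were higher in 9 of 16 kept members and lower in 1, with a median of 0.68. CSLA01 (AT4G16590), named as a mannan synthase, was at 66.1, 36.7, 31.7 and 25.7 CPM in rAP2-VENUS, against 0.458, 0.402, 0.207 and 0.270 CPM in ap2-12 (log2 fold change 6.88, SE 0.587, adjusted p = 5.57e-06). PRP4 (AT4G38770), a proline-rich wall protein, was at 489, 629, 485 and 605 CPM in rAP2-VENUS, against 17.3, 33.0, 32.2 and 43.3 CPM in ap2-12 (log2 fold change 4.13, SE 0.236, adjusted p = 2.51e-07). Neither gene overlapped between genotypes. Of wall-loosening proteins, the expansin EXPA3 was higher by 0.60 log2 units (SE 0.0849, adjusted p = 0.000305), while XTH28, a xyloglucan-modifying enzyme, was the lower member (-0.80, SE 0.101, adjusted p = 0.00012).

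Xylem and secondary wall genes were higher in 12 of 16 kept members, with 0 lower and a median of 1.70. CESA4 (AT5G44030), a cellulose synthase of the secondary wall, was at 12.0, 13.1, 11.7 and 12.0 CPM in rAP2-VENUS, against 2.67, 3.22, 3.32 and 4.19 CPM in ap2-12 (log2 fold change 1.86, SE 0.132, adjusted p = 1.25e-06). XCP1 (AT4G35350), a protease of dying vessel cells, was at 9.13, 11.9, 10.5 and 8.21 CPM in rAP2-VENUS, against 0.764, 1.47, 1.59 and 1.96 CPM in ap2-12 (log2 fold change 2.76, SE 0.231, adjusted p = 4.94e-06). The lignin laccases LAC4 and LAC17 had log2 fold changes of 2.24 (SE 0.166, adjusted p = 1.85e-06) and 2.15 (SE 0.162, adjusted p = 2.07e-06). Wall enzymes, a protease and lignin enzymes of vessels were thus higher together. The summed xylem markers CESA4, IRX3 and XCP1 were at 31.9 to 37.4 CPM in rAP2-VENUS and 7.34 to 9.95 CPM in ap2-12. The part of these markers in the result was not tested.

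Of 12 kept genes of the stomatal lineage, 4 were higher and 0 lower, with a median of 0.62. FAMA (AT3G24140), which fixes guard cell fate, was at 22.5, 23.4, 20.8 and 17.8 CPM in rAP2-VENUS, against 2.75, 4.96, 4.63 and 4.05 CPM in ap2-12 (log2 fold change 2.36, SE 0.158, adjusted p = 8.83e-07). MUTE, which acts before FAMA, and MYB60, a guard cell factor, had log2 fold changes of 2.34 (SE 0.310, adjusted p = 0.000183) and 2.91 (SE 0.397, adjusted p = 0.00023). The summed markers SPCH, MUTE and FAMA were at 31.1 to 43.3 CPM in rAP2-VENUS and 17.8 to 20.9 CPM in ap2-12, and their part was not tested. SPCH, which starts the lineage, was not called (-0.15), so the later factors differed and a difference in the earliest was not shown. SDD1, a protease that limits stomatal density, was higher by 0.82 (SE 0.211, adjusted p = 0.0154), a call lost without rAP2-VENUS replicate 1 (adjusted p = 0.0545) and without ap2-12 replicate 2 (adjusted p = 0.0547). KAT2 (AT4G18290), a potassium channel known from guard cells and among the largest lower changes, went against this, at 4.37, 1.89, 2.66 and 1.49 CPM in rAP2-VENUS and 23.5, 13.9, 9.81 and 5.27 CPM in ap2-12 (log2 fold change -2.33, SE 0.487, adjusted p = 0.0046).

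Gibberellin genes split evenly, 4 higher and 4 lower of 18 kept, with a median of 0.00. GA20OX2, an enzyme of gibberellin synthesis, was at 12.8, 12.3, 11.4 and 14.9 CPM in rAP2-VENUS, against 3.67, 2.08, 2.83 and 1.82 CPM in ap2-12 (log2 fold change 2.31, SE 0.242, adjusted p = 2.85e-05). GASA6, a gibberellin-responsive peptide, was also higher (3.15, SE 0.435, adjusted p = 0.000249). The inactivating oxidase GA2OX4 was lower, at 0.0708 to 0.756 CPM in rAP2-VENUS and 3.89 to 6.98 CPM in ap2-12 (log2 fold change -3.71, SE 0.518, adjusted p = 0.000265). Its fold rests on few rAP2-VENUS counts. The log2 fold change was -3.37 without rAP2-VENUS replicate 4 and -4.33 without rAP2-VENUS replicate 2. The receptor GID1B was lower as well (-0.80, SE 0.105, adjusted p = 0.000167). Chosen after their values were seen, the synthesis gene GA3OX1 was lower (-2.39, adjusted p = 0.00306) and the inactivating gene GA2OX1 higher (1.12, adjusted p = 0.00289), so neither synthesis nor inactivation genes moved as a block.

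Auxin genes were higher in 2 and lower in 4 of 18 kept members, beside 11.7% and 7.86% of all genes, with a median of 0.03. YUC4, an auxin synthesis enzyme of young organs, was at 5.45 to 6.65 CPM in rAP2-VENUS and 11.1 to 16.2 CPM in ap2-12 (log2 fold change -1.26, SE 0.166, adjusted p = 0.000181). The auxin-conjugating enzymes GH3.3 and GH3.6 moved apart, with log2 fold changes of -1.42 (SE 0.167, adjusted p = 7.26e-05) and 1.24 (SE 0.156, adjusted p = 0.000122). The efflux carrier PIN7 was higher (0.79, SE 0.126, adjusted p = 0.000738). The lower members numbered 2 without any 1 of rAP2-VENUS replicates 1 and 3 and ap2-12 replicates 1 to 4. Cytokinin genes were called in 3 of 15 kept members, 1 higher and 2 lower, beside 19.6% of all genes. The receptor AHK2 was higher (0.32, SE 0.0767, adjusted p = 0.0105), and the degrading enzyme CKX7 (-0.76, SE 0.124, adjusted p = 0.000871) and the activating enzyme LOG4 (-1.07, SE 0.249, adjusted p = 0.00871) were lower. CKX1 did not pass (1.14, SE 0.380, adjusted p = 0.0526), but did with DESeq2 (adjusted p = 0.0194) and without ap2-12 replicate 2 (adjusted p = 0.0468). The higher members numbered 3 with DESeq2 and 2 without ap2-12 replicate 1 or 2.

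Of 16 kept genes of abscisic acid and bud dormancy, 4 were higher and 2 lower, with a median of -0.13. RAB18 (AT5G66400), a dehydrin induced by abscisic acid, was at 4.07, 4.99, 5.32 and 3.96 CPM in rAP2-VENUS, against 0, 0, 0.0691 and 0.0675 CPM in ap2-12 (adjusted p = 1.13e-06), or 232 counts in all in rAP2-VENUS against 2 in ap2-12. The phosphatases HAI2 and ABI2, brakes of abscisic acid signalling, were higher by 1.47 (SE 0.185, adjusted p = 0.000128) and 1.18 (SE 0.157, adjusted p = 0.000195). The receptor PYL4 was lower, at 41.3 to 57.2 CPM in rAP2-VENUS and 95.9 to 111 CPM in ap2-12 (log2 fold change -1.10, SE 0.105, adjusted p = 1.43e-05). The lower members numbered 1 without rAP2-VENUS replicate 1, 2 or 3 or ap2-12 replicate 2.

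Glucosinolates are sulphur defence compounds that myrosinases split on damage. In this list 4 of 11 kept members were higher and 4 lower, with a median of 0.57. The myrosinases TGG2 (AT5G25980) and TGG1 (AT5G26000) were higher. TGG2 was at 3018, 4061, 3076 and 3003 CPM in rAP2-VENUS, against 276, 408, 361 and 484 CPM in ap2-12 (log2 fold change 3.1051, SE 0.190, adjusted p = 4.67e-07). TGG1 had a log2 change of 2.81 (SE 0.179, adjusted p = 6.29e-07). The copies are alike in sequence and may have exchanged reads. MYB28, a regulator of aliphatic glucosinolates, was higher (2.41, SE 0.249, adjusted p = 2.53e-05). NSP1, which diverts the breakdown to nitriles, was lower (-1.26, SE 0.125, adjusted p = 1.86e-05). Chosen after their values were seen, the tryptophan-converting enzymes CYP79B2 and CYP79B3 of the indole branch were lower, with log2 fold changes of -3.40 (SE 0.623, adjusted p = 0.00201) and -5.60 (SE 0.618, adjusted p = 4.5e-05). CYP79B3 was at 0 to 0.475 CPM in rAP2-VENUS and 4.39 to 14.5 CPM in ap2-12. The next enzyme, CYP83B1, was lower by less (-1.43, SE 0.410, adjusted p = 0.0271).

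Jasmonate genes were higher in 2 and lower in 3 of 13 kept members, with a median of -0.24. LOX2, a leaf lipoxygenase, was at 744, 592, 445 and 458 CPM in rAP2-VENUS, against 155, 177, 136 and 102 CPM in ap2-12 (log2 fold change 1.97, SE 0.217, adjusted p = 4.39e-05). AOS, which acts after LOX2, was lower (-0.90, SE 0.231, adjusted p = 0.0159), as was the repressor JAZ5 (-1.22, SE 0.267, adjusted p = 0.00602). The storage protein VSP2 was higher (0.44, SE 0.111, adjusted p = 0.013). Salicylic acid and defence genes were called in 1 of 10, below the 19.6% of all genes. EDS1, an immune regulator, was lower (-0.74, SE 0.151, adjusted p = 0.00396). NPR1, SARD1 and CBP60G did not pass, with log2 fold changes of -0.32 (adjusted p = 0.072), -1.23 (adjusted p = 0.232) and -1.40 (adjusted p = 0.26). DESeq2 called 2 members lower, among them NPR1 (adjusted p = 0.0418). The count also moved with rAP2-VENUS replicate 3. CBP60G was at 0.453, 0.227, 5.13 and 0.566 CPM in rAP2-VENUS, against 2.90, 2.01, 2.63 and 8.51 CPM in ap2-12. Without that replicate 4 members were lower, among them CBP60G (-3.24, adjusted p = 0.00725) and NPR1 (-0.42, adjusted p = 0.018).

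The same library stood apart for touch genes. Of 11 kept genes of heat, wounding and touch, chosen as signs of handling, 0 were called by edgeR, DESeq2 or limma-voom and 0 had an unadjusted p under 0.05. TCH3, a calmodulin-like protein, was at 11.3, 9.0, 76.8 and 17.7 CPM in rAP2-VENUS, against 19.7, 30.6, 38.6 and 156 CPM in ap2-12 (log2 fold change -1.11, adjusted p = 0.331). TCH4, a xyloglucan enzyme, was at 13.7, 4.99, 87.8 and 16.7 CPM in rAP2-VENUS, against 29.7, 5.23, 6.91 and 22.2 CPM in ap2-12 (log2 fold change 0.93, adjusted p = 0.441). In rAP2-VENUS both genes were highest in replicate 3, while in ap2-12 TCH3 was highest in replicate 4 and TCH4 in replicate 1. Without rAP2-VENUS replicate 3, TCH3 passed (-2.27, adjusted p = 0.0397) and TCH4 had a log2 fold change of -0.43. CBF2 (0.63, adjusted p = 0.456) and HSP101 (-0.12, adjusted p = 0.569) did not pass.

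Tapetum and pollen wall genes, active in the anther layer that feeds pollen, were lower in 8 of 20 kept members and higher in 0, with a median of -1.05. In none of the 20 were the genotypes free of overlap, beside 24.5% of all genes tested that were. CYP704B1, a fatty acid hydroxylase of the pollen wall, was at 36.2, 32.3, 40.4 and 51.7 CPM in rAP2-VENUS, against 43.6, 106, 78.0 and 110 CPM in ap2-12 (log2 fold change -1.07, SE 0.268, adjusted p = 0.0132). PKSB, QRT1 and ATA1 had log2 fold changes of -0.92 (adjusted p = 0.0309), -1.12 (adjusted p = 0.031) and -0.78 (adjusted p = 0.0324). In CYP704B1 and ATA1, ap2-12 replicate 1 was well below the other ap2-12 libraries. The list count turned on single libraries. It was 1 without rAP2-VENUS replicate 1, 2 or 3 or ap2-12 replicate 3 or 4, 2 without ap2-12 replicate 2, and 14 without ap2-12 replicate 1. UND (AT4G12920), annotated as an aspartic protease and among the largest lower changes, was at 2.41, 1.51, 0.760 and 2.05 CPM in rAP2-VENUS, against 3.82, 11.8, 12.3 and 15.6 CPM in ap2-12 (log2 fold change -2.66, SE 0.492, adjusted p = 0.0021). The summed tapetum markers AMS, MS1 and ATA7 overlapped, at 102 to 184 CPM in rAP2-VENUS and 123 to 230 CPM in ap2-12. Their part in the result was not tested.

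Cell cycle genes were lower in 6 of 20 kept members and higher in 1, beside 7.86% and 11.7% of all genes. The list median was -0.25. The changes were small. The mitotic cyclins CYCB2;3 and CYCB1;3 had log2 fold changes of -0.45 (SE 0.102, adjusted p = 0.00781) and -0.42 (SE 0.112, adjusted p = 0.0197). CYCD3;2, a cyclin of cell cycle entry, was at 134 to 190 CPM in rAP2-VENUS and 214 to 253 CPM in ap2-12 (log2 fold change -0.50, SE 0.120, adjusted p = 0.0106). The higher gene was KRP2, an inhibitor of the cell cycle kinases (0.66, SE 0.153, adjusted p = 0.00886). Without rAP2-VENUS replicate 3 the lower members numbered 3, and without ap2-12 replicate 2 the higher members numbered 2.

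Other genes among the largest changes have roles outside these lists. FTM1 (AT1G43800), annotated as a stearoyl-acyl-carrier-protein desaturase, was at 2.26, 4.01, 2.66 and 0.637 CPM in rAP2-VENUS, against 151, 94.0, 60.7 and 36.4 CPM in ap2-12, which is 36.0-fold lower in rAP2-VENUS (log2 fold change -5.17, SE 0.720, adjusted p = 0.000264). PRN (AT3G59220), pirin, was at 1.58, 1.51, 1.90 and 1.13 CPM in rAP2-VENUS, against 15.2, 14.3, 15.4 and 14.4 CPM in ap2-12 (log2 fold change -3.28, SE 0.148, adjusted p = 3.69e-08). In ap2-12, FTM1 spread over several-fold among libraries and PRN hardly at all. ATHB54, a homeobox-leucine zipper gene, and LTP2, a lipid transfer protein, had log2 fold changes of -3.30 (SE 0.194, adjusted p = 3.26e-07) and -2.36 (SE 0.110, adjusted p = 4.12e-08). The cytochrome CYP71B7 (-2.37, SE 0.329, adjusted p = 0.00026) and the carboxypeptidase-like SCPL43 (-2.31, SE 0.246, adjusted p = 3.25e-05) were lower too. ABCB13, a P-glycoprotein transporter, was higher, at 11.0 to 16.5 CPM in rAP2-VENUS and 0.382 to 0.871 CPM in ap2-12 (log2 fold change 4.59, SE 0.349, adjusted p = 2.19e-06).

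AT3G01345 and MRD1 are 2 of the genes that separate the line from both other genotypes. AT3G01345, an uncharacterised protein, was at 948, 693, 741 and 593 CPM in rAP2-VENUS, against 0.917, 0.603, 1.11 and 0.608 CPM in ap2-12 (log2 fold change 9.84, SE 0.294, adjusted p = 6.6e-10), and WT stood at 0.533 ± 0.321 CPM (SD, n = 4). MRD1 (AT1G53480) was at 38.8, 34.0, 39.0 and 46.9 CPM in rAP2-VENUS, against 0.153, 0.536, 0.622 and 0.473 CPM in ap2-12 (log2 fold change 6.43, SE 0.214, adjusted p = 1.83e-09), and WT stood at 0.571 ± 0.0531 CPM (SD, n = 4). In both genes WT lay at the ap2-12 level. These 2 genes belong to a list of 6 that had been picked for their change in the line against WT on these same libraries, so that the list is not independent evidence. In it 5 were higher and 1 was lower, with the glutamine dumper family member GDU4 at 2.13 (SE 0.170, adjusted p = 3.3e-06) and the metal-binding HIPP20 at 2.17 (SE 0.210, adjusted p = 1.54e-05). For GDU4 and HIPP20 the WT means, 4.22 and 3.99 CPM, lay between those of the other genotypes. The lower member, SCPL43, averaged 3.13 CPM in rAP2-VENUS, 15.6 CPM in ap2-12 and 0.918 CPM in WT. Unlike in AT3G01345 and MRD1, over all called genes the WT mean lay most of the way to rAP2-VENUS. On a scale with ap2-12 at 0 and rAP2-VENUS at 1, the median WT position was 0.837 for the 2207 higher genes and 0.751 for the 1479 lower genes, a description that rests on WT libraries outside the comparison. Among the higher genes WT lay at 0 to 0.25 in 63 and beyond ap2-12 in 14, so AT3G01345 and MRD1 were not alone.

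The neighbours of AP2 on the chromosome were examined beside it. Of 4 tested, 2 were lower and 0 higher, beside 7.86% and 11.7% of all genes. SPT, described above, is a neighbour. NAPRT1 was at 36.6 to 39.2 CPM in rAP2-VENUS and 41.3 to 45.03 CPM in ap2-12 (log2 fold change -0.22, SE 0.0689, adjusted p = 0.045), a call lost without any 1 of rAP2-VENUS replicates 1, 2 and 3 and ap2-12 replicates 2, 3 and 4, and 1 member was then lower. RAP2.10 (0.59, SE 0.210, adjusted p = 0.0694) and LEJ2 (-0.11, SE 0.104, adjusted p = 0.526) did not pass.

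A small set of genes was at or near 0 in 1 genotype. By a rule of at most 3 counts over the 4 libraries of a genotype and at least 40 over those of the other, chosen after values were seen, 9 called genes were near 0 in ap2-12 and 6 in rAP2-VENUS. AT3G26250, annotated as a C1 domain protein, had 0 counts in the 4 rAP2-VENUS libraries against 707 in ap2-12 (126 to 216 a library), and also 0 in WT, so it was at least 224-fold lower in rAP2-VENUS than in ap2-12, taking 3 counts over the group as the limit of detection. NRT2.5, a nitrate transporter, had 0 counts in rAP2-VENUS against 48 in ap2-12 and was at least 15.2-fold lower. EXLB1, an expansin-like protein, had 130 counts in rAP2-VENUS against 0 in ap2-12 and was at least 45.6-fold higher. AT3G32980, a peroxidase family member, had 78 counts in rAP2-VENUS against 0 in ap2-12 and was at least 27.4-fold higher. Such limits cover counting error only.

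Tissues that an apex sample can hold by accident left little signal. The summed seed markers were at 0.566 to 1.21 CPM in rAP2-VENUS and 0.135 to 0.201 CPM in ap2-12, and the root markers PLT1, PLT2, WOX5 and RHD6 at 0 to 0.529 CPM in rAP2-VENUS and 0.201 to 0.382 CPM in ap2-12. The radial patterning genes SHR (-0.21, adjusted p = 0.28) and SCR (-0.14, adjusted p = 0.552), the 2 of 14 listed seed and root genes kept by the filter, are also expressed in shoots and did not pass. The apex markers were measured throughout, with WUS, CLV3, STM and KNAT1 summing to 113 to 166 CPM in rAP2-VENUS and 80.4 to 99.6 CPM in ap2-12, and LFY and AP1 to 168 to 180 CPM in rAP2-VENUS and 93.6 to 107 CPM in ap2-12.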

How the data were processed

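Poly(A) RNA of 12 libraries (4 each of rAP2-VENUS, ap2-12 and WT) was sequenced as single reads of 150 bp, per the labels' protocols. The deposited table gives unnormalized read counts for each gene, and the build is TAIR10, per the submitters' processing notes. These notes name TopHat2, SAMtools and HTSeq. Versions, settings and strand are not given in the sources used here. Overlapping antisense genes may share reads. Of 27416 rows, 210 organelle rows hold 0 counts. Names came from RefSeq on TAIR10.1 (26719 rows matched, 697 not), and printed coordinates and sequences are RefSeq's own.

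Genes were kept with filterByExpr and libraries scaled by TMM. All 12 libraries entered a fit with genotype only (edgeR 4.0.16, R 4.3.3), with a biological coefficient of variation of 0.174. SE is the absolute log2 fold change over the square root of F. limma 3.58.1 and DESeq2 1.42.0 served as alternatives. Per the labels, replicates were independent biological ones. Chi-square per degree of freedom between libraries of a genotype was 5 to 45.8, so no pair agreed within sampling noise.

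Members and 29 gene lists (425 symbols, 422 matched, 372 kept) were chosen with earlier results of these data known. The text names AP2, 12 genes per direction with the largest called fold change (mean of at least 5 CPM, a symbol, no overlap) and, for every list, at most 4 members ranked by adjusted p, 128 genes in all. On simulated counts of 18643 genes, 200 of them changed and with a mean count of at least 50, the steps made 166 calls, 17 of them false. Recovery was 38.8% of genes changed 1.5-fold, 85.1% of those changed 2-fold and 100% of those changed 4-fold.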

Additional observations from a re-analysis of the deposited data

Results flagged for a closer look

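Values of the named genes were screened for a library that stands apart from the other 3 of its genotype (Dixon's criterion at 4 samples). Of 256 groups examined 19 were flagged, and chance flags about 1 in 20 groups. Explanations were not tested.

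In rAP2-VENUS replicate 3, TCH3 was at 76.8 CPM (the other libraries at 9.0 to 17.7), TCH4 at 87.8 CPM (4.99 to 16.7), CBP60G at 5.13 CPM (0.227 to 0.566), UFO at 8.17 CPM (6.65 to 6.73) and RAP2.10 at 2.66 CPM (3.24 to 3.33). In ap2-12 replicate 4, TCH3 was at 156 CPM (19.7 to 38.6), CBP60G at 8.51 CPM (2.01 to 2.90) and SARD1 at 13.5 CPM (2.01 to 3.59). TCH3 and CBP60G thus stood apart in a library of each genotype.

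In rAP2-VENUS replicate 4, TOE1 was at 2.27 CPM (3.99 to 4.23), QRT1 at 6.37 CPM (3.02 to 3.47) and ELF3 at 122 CPM (87.6 to 93.4). In rAP2-VENUS replicate 2, TGG2 was at 4060 CPM (3000 to 3080) and ABI2 at 9.68 CPM (13.5 to 14.1). In rAP2-VENUS replicate 1, HEC1 was at 1.13 CPM (1.42 to 1.44) and CKX1 at 6.34 CPM (2.83 to 3.33).

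In ap2-12 replicate 1, SOC1 was at 132 CPM (113 to 116), RBCS2B at 9.86 CPM (17.4 to 18.8) and RBCS3B at 232 CPM (274 to 280). In ap2-12 replicate 3, AIL5 was at 47.2 CPM (40.9 to 41.9). For TOE1, UFO, TGG2, ABI2, HEC1, SOC1, RBCS2B, RBCS3B and AIL5 the call held without the library that stood apart.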

How the results depend on the processing

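Under the 16 alternatives every gene called in the main fit and still tested kept its sign. The count of 3686 calls (2207 higher, 1479 lower) ranged over 2792 to 3723 when a library was left out, and was 3819 with the 8 libraries alone, 3691 with median-of-ratios scaling, 3779 with upper-quartile scaling, 3640 without the low-count filter, 3611 with at least 1 CPM in at least 4 libraries, 4258 with DESeq2 and 3710 with limma-voom. The share of calls that were higher, 59.9%, was 53.6% under upper-quartile scaling.

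With the replicate number as a block 6215 genes were called, 3436 higher and 2779 lower. Same-numbered libraries of the genotypes deviated together with correlations of 0.581, 0.0951, 0.0686 and 0.594 for replicates 1 to 4. Since 2 of these do not pass 0.1, the numbers were not taken to pair the libraries in the main fit. Of the 4 rAP2-VENUS libraries, 2 correlated best with the ap2-12 library of their own number. The 0.1 rule cannot show that the libraries are unpaired. The second principal component ran with the replicate number in both genotypes, and replicates 2 and 3, with the low correlations, lay nearest its middle. The main fit thus left the replicate pattern in its estimate of the spread. Under the block 3 clock genes passed, ELF4 (1.78, adjusted p = 0.00357), FKF1 (1.38, adjusted p = 0.011) and PRR3 (0.602, adjusted p = 0.0144), all higher in rAP2-VENUS. CKX1 (1.12, adjusted p = 0.00635), RAP2.10 (0.609, adjusted p = 0.0474) and NPR1 (-0.321, adjusted p = 0.0415) passed as well, and no other named gene gained a call under it.

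TOE2, at 0.00, had log2 fold changes of -0.00544 under median-of-ratios scaling, -0.0300 under upper-quartile scaling, -0.0139 without the filter, -0.000639 under the stricter filter, -0.00351 with DESeq2 and -0.0583 to 0.048 with a library left out. TCH4 was at -0.432 without rAP2-VENUS replicate 3 and at up to 1.41 with another library left out. The cause was not tested. Of the list counts 70 moved by over 1.5 times, or to or from 0, and 858 did not. The tapetum count of 8 was 15 under the block and 3 with limma-voom, and the stomatal count of 4 was 7 under the block and with DESeq2. Depth limits genes under about 1 CPM, where a library holds few counts.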

Other observations

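Of 12 kept genes known from the response to low oxygen, 7 were lower in rAP2-VENUS, 0 were higher and 5 did not pass, with a median of -1.12. Over all genes tested 7.86% were lower and 11.7% higher. The genes were gathered after their values were seen, so their count is a description. ADH1, alcohol dehydrogenase, averaged 6.0 ± 1.1 CPM in rAP2-VENUS and 21.6 ± 1.39 CPM in ap2-12 (SD, n = 4 each, log2 fold change -1.85, adjusted p = 2.65e-06). The plant cysteine oxidases PCO1 and PCO2, which mark oxygen-sensing factors for destruction, had log2 fold changes of -2.06 (adjusted p = 3.62e-06) and -3.47 (adjusted p = 3.3e-06). HRA1, HB1, LBD41 and ETR2 were lower by 1.91, 1.76, 1.34 and 0.77 on the log2 scale (SE 0.335, 0.308, 0.215 and 0.127). In ap2-12 replicates 1 to 4, HRA1 was at 111, 53.7, 44.5 and 35.4 CPM and LBD41 at 256, 143, 140 and 118 CPM. PCO1 and PCO2 were also highest in ap2-12 replicate 1, while ADH1, HB1 and ETR2 were not. In all these genes every ap2-12 library lay above every rAP2-VENUS library. PDC1 (-0.35), PDC2 (0.04), SUS1 (0.13), ERF73 (-0.35) and RBOHD (-0.89, adjusted p = 0.052) did not pass.

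UMAMIT genes, which encode amino acid transporters, were higher in rAP2-VENUS in 16 of 29 kept family members and lower in 1, UMAMIT30 (-3.85), with a median of 0.81. UMAMIT28 had the highest log2 fold change of the family, 4.02. PCK1, phosphoenolpyruvate carboxykinase, averaged 133 ± 16.0 CPM in rAP2-VENUS and 556 ± 24.8 CPM in ap2-12 (SD, n = 4 each, log2 fold change -2.07, adjusted p = 6.28e-07). PPCK1, the kinase of phosphoenolpyruvate carboxylase, went the other way, at 97.8 ± 10.4 CPM in rAP2-VENUS and 44.0 ± 5.02 CPM in ap2-12 (log2 fold change 1.15, adjusted p = 4.9e-06). These genes too were chosen after their values were seen.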
